A study of Bos taurus with 8 samples.

Results

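Expression of tenascin, periostin, SPARC and thrombospondin genes was compared between bovine preadipocyte clones of 2 depots, the fat within muscle (intramuscular fat, IMF) and the fat under the skin (subcutaneous fat, SF). Genes were taken by name from a list of 9 glycoproteins of the extracellular matrix, fibronectin included, which was drawn up with earlier results of these data known. The rule itself used no measured value. Of the 9, 6 were among the 18871 named genes of the count table: TNC, POSTN, SPARC, THBS1, THBS2 and THBS3. FN1, THBS4 and COMP were not analysed here. RNA was sequenced from 8 clones, 4 from IMF (IMF1 to IMF4) and 4 from SF (SF1 to SF4), each grown from 1 cell of the stromal vascular fraction of adult male Angus-cross steers. No genetic change or treatment set the groups apart, and according to the study's methods the cells were collected as growing, subconfluent preadipocytes before adipogenic induction. Within a depot no tissue sample gave more than 1 of the clones, and the clones had been picked for how they grew, looked and filled with lipid, so a group stood for 4 selected clones and not for the mixed cells of a depot. Differences between steers and between clones of 1 steer cannot be told apart, and which IMF and SF clones shared a steer was not stated. The labels and the study's methods also give different numbers of steers.

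Fibronectin is a fibre-forming matrix protein on which many other matrix proteins assemble. The other members of the list are mostly matricellular proteins, which are secreted into the matrix and act on cells through integrins, proteoglycans and growth factors more than by bearing load. Tenascin-C, periostin and SPARC bind collagens or fibronectin and are typically abundant in developing, healing or mechanically loaded connective tissue, and SPARC is known to restrain adipogenesis in mice. Thrombospondins fall into a trimeric group, THBS1 and THBS2, which bind CD36 and CD47 and restrain blood vessel growth, and a pentameric group, THBS3, THBS4 and COMP, which is best known from cartilage, tendon and bone.

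Total counts lay between 19654917 and 29308882 for the IMF clones and between 19979899 and 24868233 for the SF clones. At these depths 3 counts, used as the limit of detection, equalled 0.102 to 0.153 counts per 1000000 (CPM) of the unscaled totals, and this limit covers counting error only. On the TMM-scaled CPM of the values below, 3 counts equalled 0.165 CPM in SF4, the clone with the highest limit on that scale. All pairs of clones within a group differed by far more than counting noise. Of the 7 preadipocyte markers, PDGFRA was at 184 ± 2.84 in IMF and 131 ± 23.2 CPM in SF, and PDGFRB was at 210 ± 11.1 and 236 ± 63.0 CPM (mean ± SD, n = 4 each). Past the threshold, described below, were 1 of the 7 as higher in IMF and 1 as lower (4.78% and 4.04% of all genes tested, also for the marker lists that follow), both named after their values were seen. CD34 was the higher one, with at least 216 counts in every IMF clone and at most 2 in any SF clone, and PPARG the lower one, at 1.23 ± 0.24 and 3.13 ± 0.54 CPM. All 10 skeletal muscle markers and all 10 endothelial markers tested were past the threshold as higher in IMF, of which DES lost its call in 7 of 19 alternatives and the rest in none. The muscle markers summed to between 814 and 935 CPM in the IMF clones and between 2.50 and 25.7 CPM in the SF clones, with 4 of them at 3 counts or fewer in every SF clone. The endothelial markers summed to between 294 and 318 CPM in IMF and between 2.76 and 4.41 CPM in SF, with 6 at 3 counts or fewer in every SF clone. These markers, higher in IMF and with no overlap between the groups, differed with the depot, as did the genes past the threshold below, in either direction. The part of these markers in the results below was not tested. In bulk RNA, fewer cells making a transcript and less transcript per cell cannot be told apart.

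Each gene was tested between the 4 IMF and 4 SF clones with edgeR's quasi-likelihood test, with p-values adjusted by the Benjamini-Hochberg method over all 18339 genes tested. A gene counted as past the threshold when it had an adjusted p under 0.05 together with a log2 fold change of at least 1 in either direction, and log2 fold changes are IMF minus SF, so that a negative value is lower in IMF. TNC, POSTN and THBS2 were past the threshold, all lower in IMF, so 3 of the 6 genes were called, against 4.04% of all genes tested in that direction, 4.78% in the opposite one and 8.82% in either. THBS3 was also lower in IMF by adjusted p but by less than the fold threshold, which made 4 of 6 genes lower by adjusted p alone, against 11.4% of all genes (25.8% in either direction). The 4 IMF clones lay below the 4 SF clones without overlap for TNC, THBS1, THBS2 and THBS3, against 14.1% of all genes (32.1% with the groups apart in either direction). All 6 fitted log2 fold changes were negative, as were 52.3% of those of all genes. SPARC and THBS1 did not pass the test.

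**Figure D1:**
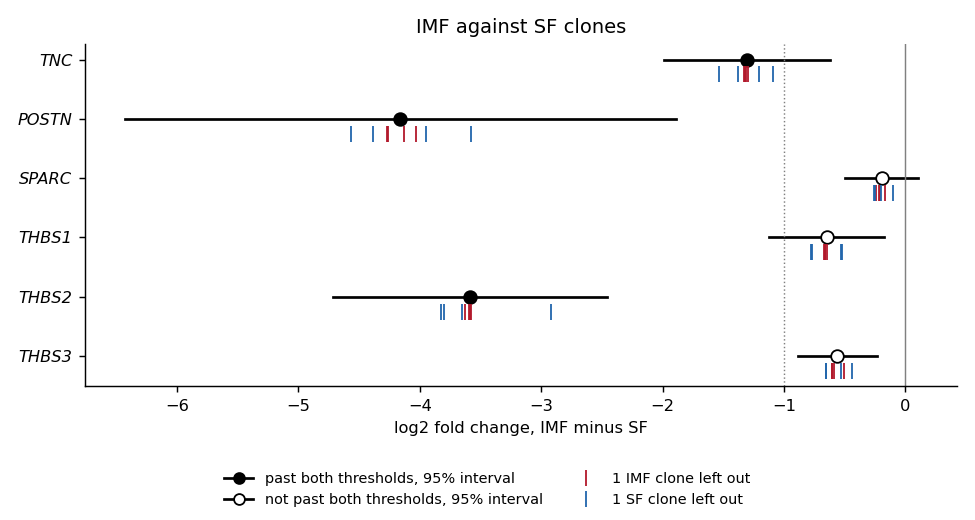
Log2 fold change of the 6 genes, IMF minus SF, on the horizontal axis, with the dotted line at the fold threshold of 1. Points are edgeR estimates with 95% intervals from 4 clones per group, filled where past both thresholds, and ticks below each point are the estimates with 1 IMF clone (red) or 1 SF clone (blue) left out. POSTN and THBS2 lie farthest from 0, at -4.16 and -3.59, the ticks of POSTN run from -4.56 to -3.58, and the interval of SPARC includes 0.

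Tenascin-C is a hexameric glycoprotein that loosens the attachment of cells to fibronectin. TNC lies on chromosome 8 (chr8:104208978-104311445, ARS-UCD2.0), and its counted length was 8142 bases. The IMF clones held 4458, 4417, 4552 and 4666 CPM and the SF clones 5353, 13420, 10143 and 15803 CPM, in the order of the clone numbers. All IMF clones were close together, SF1 lay just above them, and SF2, SF3 and SF4 stood well apart. Mean levels (± SD, n = 4 per group, here and below) were 4523 ± 111 CPM for IMF and 11180 ± 4525 CPM for SF, 2.47-fold higher in SF. The log2 fold change was -1.31 (SE 0.30, 95% interval -1.99 to -0.62), with an adjusted p of 0.0141. With 1 clone left out it ranged from -1.54 without SF1 (adjusted p = 0.000460) to -1.09 without SF4 (adjusted p = 0.0317), and tested against a log2 fold change of 1 instead of 0 it did not pass (adjusted p = 0.749), the largest adjusted p of the 19 alternatives run, which otherwise ranged from 7.67e-05 to 0.0407. TNC shares positions with a pair of long non-coding RNA genes that were not analysed here, over 7 and 8415 bases of the gene.

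Periostin is a fasciclin-domain protein that binds type I collagen and tenascin-C and helps to bring the collagen-processing protease BMP1 to the matrix. POSTN lies on chromosome 12 (chr12:24219371-24254425), with a counted length of 3643 bases. Counts were 230, 428, 300 and 179 in the IMF clones, equal to 11.03, 14.0, 13.6 and 8.52 CPM. The SF clones had 127, 5938, 2920 and 7661 counts, equal to 6.52, 297, 119 and 422 CPM. SF1 was therefore below every IMF clone while SF2, SF3 and SF4 were far above them, and the groups overlapped. Means were 11.8 ± 2.54 in IMF and 211 ± 185 CPM in SF, with a 64.8-fold range among the SF clones. The log2 fold change was -4.16 (SE 0.99, 95% interval -6.43 to -1.89), with an adjusted p of 0.0166, and with 1 clone left out it ranged from -4.56 without SF1 (adjusted p = 0.000353) to -3.58 without SF4 (adjusted p = 0.0376), where the SF mean was 141 CPM. Periostin lost its call in 4 of 19 alternatives, among them limma-voom (log2 fold change -3.08, adjusted p = 0.1253), without IMF4 (adjusted p = 0.0508) and a log2 fold change of 1 as the null (adjusted p = 0.0984), and over all of them its adjusted p ranged from 8.68e-05 to 0.1253.

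SPARC, also called osteonectin, is a calcium-binding glycoprotein that binds collagen and takes part in its deposition. Its gene is on chromosome 7 (chr7:62874459-62897234), with a counted length of 2136 bases. Levels were 4656, 4575, 4705 and 4276 CPM in the IMF clones and 4645, 5173, 4819 and 6218 CPM in the SF clones. SF1 lay within the IMF range, SF2, SF3 and SF4 lay above it, and the means of 4553 ± 192 and 5214 ± 705 CPM differed by less than the spread among the SF clones. The log2 fold change was -0.20 (SE 0.13, 95% interval -0.49 to 0.10), with an adjusted p of 0.317. In none of the 19 alternatives run did SPARC pass, with log2 fold changes between -0.26 and -0.04.

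Thrombospondin-1 is the member of the trimeric group that releases TGF-beta from its latent complex. THBS1 lies on chromosome 10 (chr10:35209555-35225356), with a counted length of 5808 bases. Its level was 6021, 5795, 5791 and 5877 CPM in the IMF clones and 11370, 6544, 7384 and 11491 CPM in the SF clones. The groups did not overlap, but SF2 and SF3 were near the IMF clones and SF1 and SF4 were higher. The means were 5871 ± 108 in IMF and 9197 ± 2602 CPM in SF, 1.57-fold higher in SF. The log2 fold change of -0.65 (SE 0.21, 95% interval -1.12 to -0.17) had an adjusted p of 0.0508, just over the threshold, and did not reach the fold threshold. The adjusted p was under 0.05 in 6 of 19 alternatives, among them DESeq2 (0.00624), without SF2 (0.0206) and without SF3 (0.0387), and it ranged up to 0.110 with 1 clone left out. Tested against a log2 fold change of 1, it was 1. A 226-base stretch of THBS1 is shared with FSIP1, which was at 0.323 in IMF and 0.652 CPM in SF.

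Thrombospondin-2 resembles thrombospondin-1 in its domains and also restrains vessel growth, but does not release TGF-beta from its latent form. THBS2 lies on chromosome 9 (chr9:103153922-103185316), with a counted length of 4209 bases. The IMF clones held 94.7, 90.8, 98.7 and 97.3 CPM. The SF clones held 530, 2418, 1041 and 591 CPM, so that the lowest SF clone was well above the highest IMF clone. Mean levels were 95.4 ± 3.48 in IMF and 1145 ± 879 CPM in SF, 12.01-fold higher in SF. The log2 fold change was -3.59 (SE 0.49, 95% interval -4.71 to -2.46), with an adjusted p of 0.00126. SF2 carried much of the SF mean, which was 721 CPM without it, with a log2 fold change of -2.92. THBS2 passed in all 19 alternatives run, with -3.82 as its lowest log2 fold change and an adjusted p of at most 0.00838.

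THBS3 encodes a thrombospondin of the pentameric group with roles in skeletal growth. It lies on chromosome 3 (chr3:15414578-15425519), with a counted length of 3155 bases. Levels were 19.6, 18.3, 18.6 and 15.9 CPM in the IMF clones and 28.6, 33.2, 23.4 and 21.6 CPM in the SF clones. Every SF clone was above every IMF clone, although SF4 and IMF1 were near each other. With means of 18.1 ± 1.56 and 26.7 ± 5.25 CPM, the log2 fold change was -0.56 (SE 0.14, 95% interval -0.89 to -0.24), with an adjusted p of 0.0210. The adjusted p rose over 0.05 without IMF4 (0.0585), with scaling to total counts alone (0.113) and when a log2 fold change of 1 was the null (1), and stayed under 0.05 in 16 of 19 alternatives, with 0.00251 the lowest value.

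**Figure D2:**
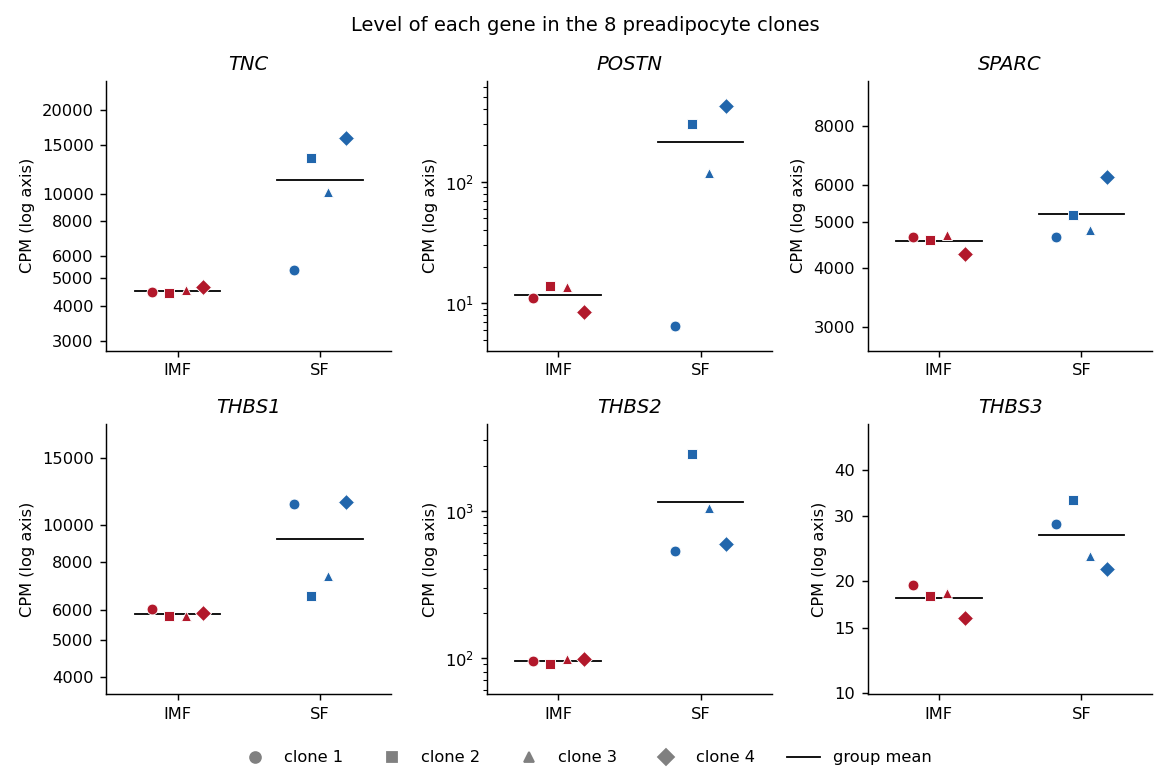
Level of each of the 6 genes in CPM, on a log axis of its own in each panel, for the 4 IMF clones (red) and the 4 SF clones (blue). Marker shape gives the clone number and the bar is the group mean. The IMF clones lie close together in each panel, SF1 sits under the IMF clones for POSTN at 6.52 CPM and near them for TNC at 5353 CPM, and SF2 is the highest clone for THBS2 at 2418 CPM.

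The SF clones differed more among themselves than the IMF clones did, and for 6 of 6 genes the coefficient of variation of CPM was larger in SF. The same held for 74.7% of 10948 genes with enough reads for this comparison (100 counts or more on average in each group), whose median coefficient of variation was 6.60% in IMF and 13.4% in SF. For THBS1 the coefficient was 1.84% in IMF and 28.3% in SF, for TNC 2.45% and 40.5%, and for THBS2 3.65% and 76.7%. SPARC and THBS3 varied least among the SF clones, at 13.5% and 19.7%, and POSTN most, at 87.5% against 21.6% in IMF. No single order of the SF clones held for all genes. SF4 was highest for TNC, POSTN, SPARC and THBS1, whereas SF2 was highest for THBS2 and THBS3. SF1 was lowest for TNC, POSTN, SPARC and THBS2, but was close to the highest for THBS1. In SF2, SF3 and SF4 all 6 genes were above every IMF clone, and in SF1 4 were. Among the 741 genes called lower in IMF, 3.24% were at or under the highest IMF clone in SF1, against 0.810% to 2.02% in the other SF clones, and SF1 was the lowest SF clone for 25.1% of them.

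Levels of different genes were compared per length, as TPM (transcripts per 1000000), computed from the counts and the deposited gene lengths. In the IMF clones the order was SPARC (3564 ± 382 TPM), THBS1 (1687 ± 133), TNC (927 ± 66.4), THBS2 (37.9 ± 3.59), THBS3 (9.60 ± 1.39) and POSTN (5.42 ± 1.30), and no neighbours in this order overlapped in range. SPARC was at the 99.9th percentile of tested genes in IMF and POSTN at the 49.96th. In the SF clones SPARC (3998 ± 374 TPM), THBS1 (2565 ± 545), TNC (2249 ± 866) and THBS2 (467 ± 391) held the same places, followed by POSTN (93.5 ± 77.5) and THBS3 (14.1 ± 3.75). THBS1 and TNC overlapped in range in SF, with THBS1 the higher in 3 of 4 clones, and so did POSTN and THBS3, with POSTN the higher in 3 of 4. POSTN stood at the 94.95th percentile in SF and THBS2 at the 98.7th, against the 87.4th in IMF. Together the 6 genes took 1.52% to 1.66% of all counts in the IMF clones and 2.09% to 2.98% in the SF clones, with SF1 the lowest of the latter.

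**Figure D3:**
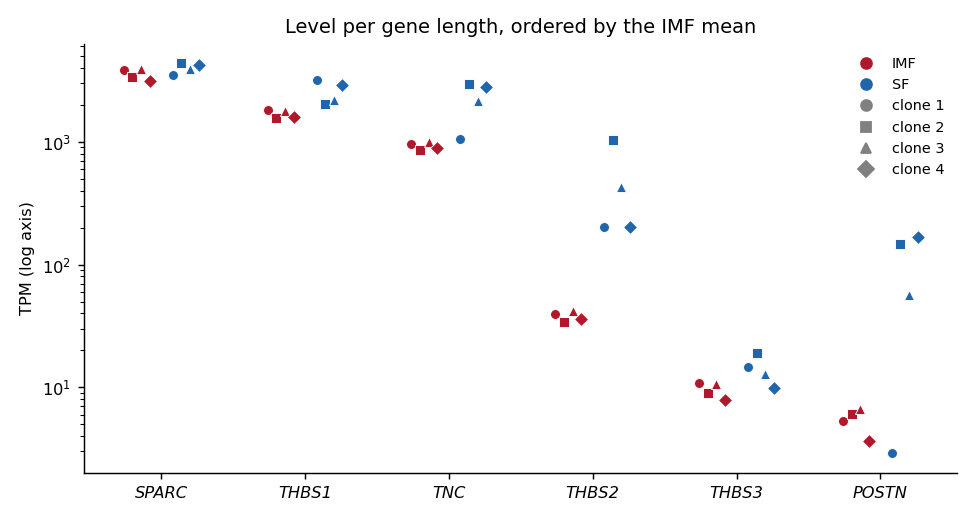
Level per gene length in TPM, on a log axis, of the 6 genes in the 4 IMF clones (red) and 4 SF clones (blue), ordered by the IMF mean. SPARC, THBS1 and TNC are at 850 TPM or more in all clones, while THBS2 and POSTN are the genes whose SF clones spread widest, POSTN from 2.89 to 169 TPM.

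Ratios between the genes differed between the depots and among the SF clones. In TPM, THBS1 exceeded THBS2 by 46.0, 46.3, 42.5 and 43.8 fold in the IMF clones and by 15.6, 1.96, 5.14 and 14.1 fold in the SF clones. The excess of THBS1 was thus larger in every IMF clone than in any SF clone, and it was smallest in SF2. TNC relative to SPARC was at 0.251 to 0.286 in IMF and at 0.302, 0.681, 0.552 and 0.667 in the SF clones. TNC relative to POSTN was between 141 and 245 in IMF, and in SF it was 368 in SF1 against 20.2, 38.3 and 16.8 in SF2, SF3 and SF4.

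For each of the 3 genes past the threshold, the genes whose log2 CPM followed it most closely over the 8 clones were looked up among 8725 genes with a mean of at least 10 CPM, after centring each gene on its own mean. Genes whose symbols begin with LOC and the genes of the list itself were not among the 8725. Likeness was the root-mean-square difference in log2 CPM, and since it was used to choose the genes it is given as a description. TNC was followed most closely by ECM1, which encodes extracellular matrix protein 1 (0.157), by POLM, a DNA polymerase (0.160), and by RFLNB, a filamin-binding protein (0.182). ECM1 was at 19.9 to 26.8 CPM in the IMF clones, at 30.6 CPM in SF1 and at 52.6 to 76.4 CPM in SF2, SF3 and SF4, so the low SF1 value of TNC was shared by it. POSTN was matched less closely, by ASPN (0.626), WNK2 (0.966) and PLXDC1 (1.06). ASPN encodes asporin, a small leucine-rich protein of the matrix, and held 7.29 CPM in SF1 against 7.14 to 8.503 CPM in the IMF clones and 171 to 300 CPM in the other SF clones. THBS2 was nearest to MFAP2 (0.478), a microfibril protein, and to the homeobox genes IRX1 (0.515) and IRX5 (0.522). MFAP2 was at 4.43 to 5.13 CPM in IMF and 39.7 to 73.5 CPM in SF.

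**Figure D4:**
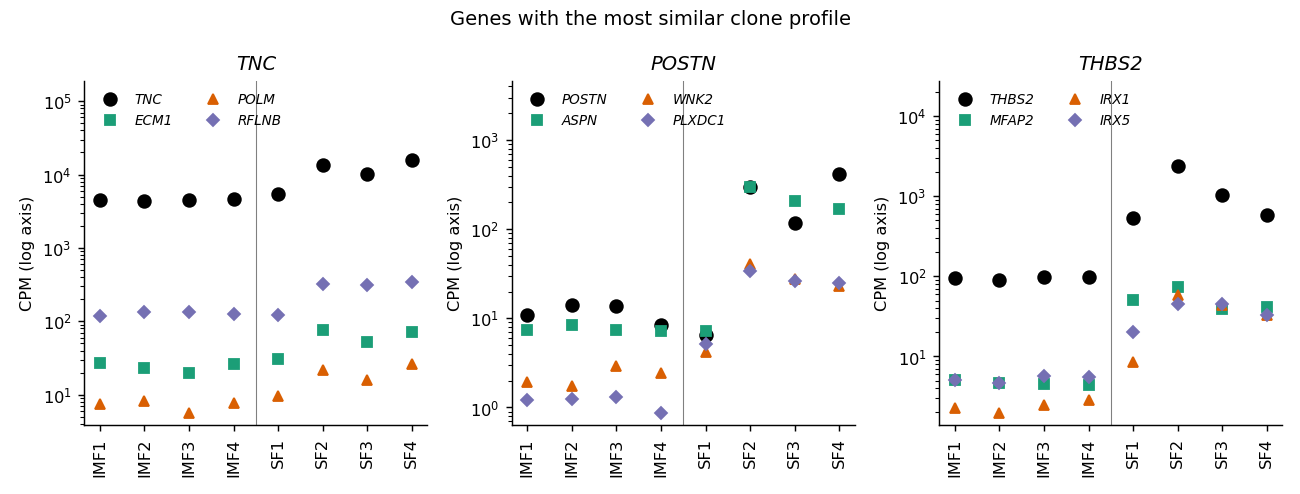
CPM on a log axis in each of the 8 clones for TNC, POSTN and THBS2 (black) and the 3 genes with the most similar profile to each (coloured), with a line between the IMF and the SF clones. TNC and its neighbours are near their IMF level in SF1, POSTN and ASPN are low in SF1 (6.52 and 7.29 CPM), and THBS2 and its neighbours are above their IMF level in all 4 SF clones.

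The closest relatives of TNC and POSTN gave few measured genes. Of the 4 listed, TNXB and TGFBI were tested and both were past the threshold as lower in IMF (median log2 fold change -2.67, against -0.03 over all genes tested, of which 4.04% were past it in that direction). TNXB, the tenascin of skin and tendon that is lost in a form of Ehlers-Danlos syndrome, held 13.7 to 15.8 CPM in the IMF clones and 96.7, 83.6, 34.6 and 32.2 CPM in the SF clones (log2 fold change -2.07, adjusted p = 0.00432). Here SF1 was the highest SF clone, unlike for TNC. TGFBI, the fasciclin-domain relative of periostin, held 49.0 to 55.8 CPM in IMF and 61.7, 277, 1402 and 286 CPM in SF (log2 fold change -3.27, adjusted p = 0.0204). SF1 was again near the IMF clones, and SF3 was far above the other SF clones and carried much of the SF mean. TGFBI lost its call in 6 alternatives, among them leaving out any 1 of the IMF clones (adjusted p-values of 0.0533 to 0.0567), and its adjusted p ranged from 3.92e-05 to 0.149 over all alternatives.

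Among the SPARC relatives, 4 of 7 listed genes were tested, with 1 past the threshold in each direction (median log2 fold change -0.87), against 8.82% of all genes tested in either direction. SPARCL1, also called hevin, had between 60 and 94 counts per IMF clone and 0 in every SF clone, which set against 3 counts per SF clone was at least 21.8-fold higher in IMF (adjusted p = 0.000199). SMOC2, a SPARC relative found in basement membranes, had between 55 and 93 counts per IMF clone and 8, 1126, 3146 and 438 in the SF clones, so the groups overlapped through SF1 (log2 fold change -4.23, adjusted p = 0.0285). SMOC2 lost its call in 9 alternatives, among them limma-voom (adjusted p = 0.485), without SF2 (0.0514), without SF3 (0.0642) and without each IMF clone (0.0695 to 0.0770), and the lowest adjusted p of any alternative was 0.000805. Its log2 fold change was -2.69 with limma-voom and -3.3 without SF3. Other matricellular genes, the CCN family with SPP1, had 7 tested members, of which 0 were past the threshold in edgeR, 1 in DESeq2 and 1 in limma-voom. Of all 18339 genes tested, edgeR called 1618, DESeq2 1996 and limma-voom 1772. In edgeR 2 of the 7 had an unadjusted p under 0.05 and 1 an adjusted p under 0.05, against 25.8% of all genes by adjusted p. The 1 by adjusted p was CCN1, named after its value was seen, an integrin-binding protein at 461 ± 18.2 CPM in IMF against 769 ± 161 in SF (log2 fold change -0.74, adjusted p = 0.00738). SPP1, named likewise, was at 31.2 ± 3.51 and 12.9 ± 8.97 CPM (log2 fold change 1.27, adjusted p = 0.0591).

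Receptors through which these proteins act differed in both directions. Of the 18 tested, 4 were past the threshold as higher in IMF, 3 as lower and 11 were not past it, and 12 had an adjusted p under 0.05 (median log2 fold change -0.26). Over all genes tested these shares were 4.78% higher, 4.04% lower and 25.8% by adjusted p. LRP1, the endocytic receptor that clears thrombospondins from the cell surface, was at 2241 ± 119 CPM in IMF against 5295 ± 653 in SF (log2 fold change -1.24, adjusted p = 0.000281). ITGB3, the integrin chain that with ITGAV binds periostin, tenascin-C and thrombospondins, was at 171 to 185 CPM in IMF and 296 to 597 CPM in SF (log2 fold change -1.18, adjusted p = 0.00454), and without SF4 its log2 fold change was -0.94, under the fold threshold. SDC3, a heparan sulphate proteoglycan of the cell surface, was at 16.8 ± 0.94 and 70.3 ± 26.1 CPM (log2 fold change -2.06, adjusted p = 0.000576). In the other direction, ITGB8, an integrin chain that activates latent TGF-beta, was at 11.9 ± 0.61 CPM in IMF against 3.94 ± 1.24 in SF (log2 fold change 1.59, adjusted p = 0.00143). STAB1, the scavenger receptor stabilin-1 that takes up SPARC, was at 11.6 ± 1.93 and 2.46 ± 0.42 CPM (log2 fold change 2.24, adjusted p = 8.96e-05). STAB1 is itself a gene of endothelium and macrophages, and the endothelial markers were higher in the same clones, as given above. Any part of such cells in the STAB1 difference was not tested. The remaining pair past the threshold, named to complete the count, were both higher in IMF. ITGA8 was at 12.7 ± 0.82 CPM in IMF against 0.32 ± 0.33 in SF (log2 fold change 5.27, adjusted p = 0.000620). CD36 was at 9.40 ± 1.09 CPM in IMF against 1.30 ± 0.63 in SF (log2 fold change 2.86, adjusted p = 0.000492).

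Matrix partners were past the threshold only as lower in IMF, 5 of 10 tested, and 6 of 10 had an adjusted p under 0.05 (median log2 fold change -1.04), against 4.04% and 25.8% of all genes tested. COL1A1, a chain of type I collagen, was at 12371 ± 392 CPM in IMF against 30088 ± 1070 in SF (log2 fold change -1.28, adjusted p = 0.000308). COL12A1, a collagen found on the surface of fibrils that binds tenascin-X, was at 1151 to 1198 CPM in IMF and at 11887, 7019, 6189 and 4802 CPM in the SF clones (log2 fold change -2.67, adjusted p = 0.000295), so that SF1, low for TNC, was the highest for it. FBLN2, a fibulin that binds fibronectin, was at 1226 ± 26.4 and 3126 ± 420 CPM (log2 fold change -1.35, adjusted p = 0.000157). Its relative FBLN1 was at 30.6 to 35.8 CPM in the IMF clones and at 323, 163, 46.1 and 91.4 CPM in the SF clones, with SF1 well above the rest (log2 fold change -2.25, adjusted p = 0.0147). LTBP1, which anchors latent TGF-beta in the matrix, was at 9.47 to 10.7 CPM in the IMF clones and at 67.3, 22.3, 13.3 and 31.6 CPM in the SF clones, again highest in SF1 (log2 fold change -1.73, adjusted p = 0.0215), and it lost its call with limma-voom (0.0627) and without any 1 of the IMF clones (0.0506 to 0.0574), within a range of 0.000686 to 0.382 over all alternatives.

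Of the 3 proteases known to cut COMP, ADAMTS7 was past the threshold as lower in IMF, at 15.1 ± 1.38 and 33.9 ± 10.6 CPM (log2 fold change -1.16, adjusted p = 0.00430), and without SF1 its log2 fold change was -0.96. Of all genes tested, 4.04% were past the threshold as lower and 4.78% as higher. ADAMTS12 was past it in the other direction, at 8.24 ± 0.28 CPM in IMF against 1.37 ± 0.55 in SF (log2 fold change 2.59, adjusted p = 0.000468). In the TGF-beta axis, a known inducer of several of these matrix genes, 0 of 9 genes tested were past the threshold in edgeR, DESeq2 or limma-voom, 5 had an unadjusted and 4 an adjusted p under 0.05 in edgeR (of all genes, 8.82% were past the threshold and 25.8% by adjusted p), and the median log2 fold change was -0.59. The 4 were TGFB1, TGFB2, TGFBR1 and SMAD7, named after their values were seen, all lower in IMF by 0.61 to 0.95 on the log2 scale, and TGFBR1 was past the threshold in 3 of 19 alternatives. Of 27 genes checked, those past the threshold in the lists of relatives, receptors and partners and those with the nearest profiles, 4 share positions with a protein-coding gene (TNXB, STAB1, ADAMTS12 and ASPN) and 2 with long non-coding RNA genes alone (SMOC2 and ITGB8). Reads of such neighbours cannot be told apart without strand.

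**Figure D5:**
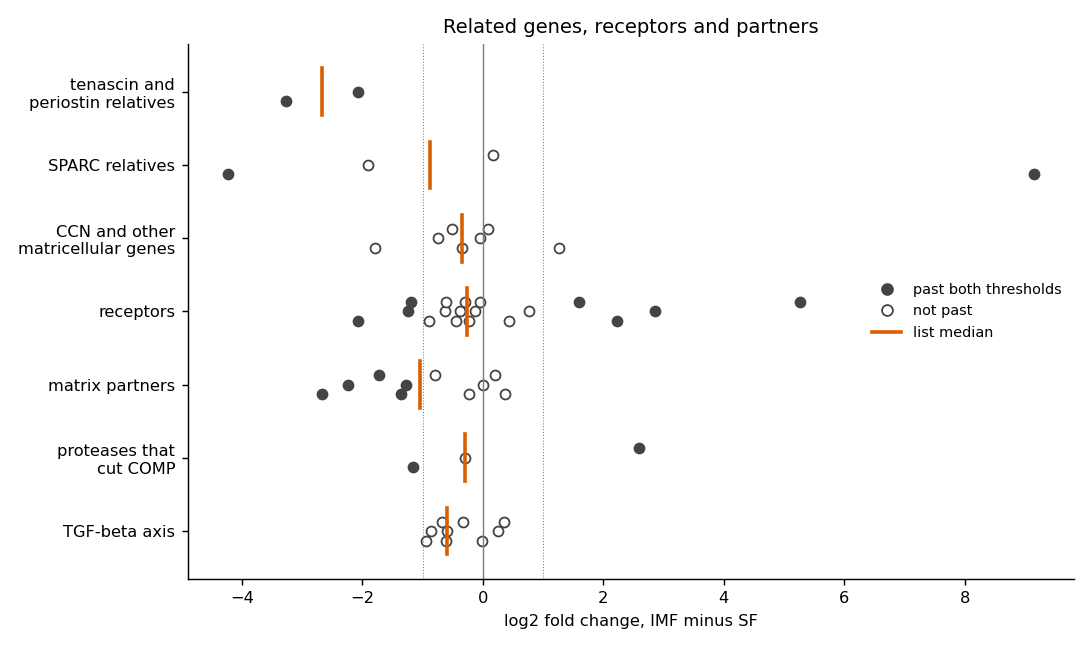
Log2 fold change, IMF minus SF, of the tested genes in 7 lists of relatives, receptors, partners and regulators. Each point is a gene, filled where past both thresholds, the orange bar is the list median, and the dotted lines mark the fold threshold. Receptors lie on both sides of 0, the 5 filled matrix partners all lie below -1, and the point beyond 8 is SPARCL1, whose fitted value depends on the prior count because its SF clones held 0 counts.

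Markers of other cells that make these proteins were set beside the results. Of all genes tested, 4.78% were past the threshold as higher in IMF and 4.04% as lower. Tendon, where TNC, COMP and THBS4 are prominent, was covered by 4 tested markers, which summed to 236 to 243 CPM in the IMF clones and 306 to 572 CPM in the SF clones. SCX, a transcription factor of tendon cells, was the 1 past the threshold, at 1.49 ± 0.10 and 5.11 ± 1.53 CPM (log2 fold change -1.78, adjusted p = 0.00103), and DESeq2 called 2 of the 4 as lower. FMOD, at 229 ± 3.03 and 440 ± 110 CPM, was not past the threshold. MKX was not either, at 6.19 to 7.34 CPM in the IMF clones and 5.18, 10.2, 47.9 and 17.9 CPM in the SF clones, with SF1 below every IMF clone and SF3 far above the rest. Cartilage markers summed to between 15.5 and 21.3 CPM in IMF and between 11.5 and 31.1 CPM in SF, with ACAN the 1 of 6 past the threshold, higher in IMF, and 1 more called as lower with DESeq2. Smooth muscle and pericyte markers summed to 2205 to 2472 CPM in IMF and 3240 to 11039 CPM in SF. All 6 were past the threshold, ACTA2, TAGLN, CNN1 and CSPG4 as lower in IMF and MYH11 and MCAM as higher. None held in all 19 alternatives: ACTA2 lost its call in 9, MYH11 in 8, TAGLN in 3, MCAM in 2, and CNN1 and CSPG4 in 1 each. Their order among the SF clones was not shared, as ACTA2 was highest in SF1 (6491 CPM) and CSPG4 lowest there (122 CPM). Leukocyte and platelet markers summed to 12.7 to 30.9 CPM in IMF and 30.9 to 56.1 CPM in SF. Among them PTPRC was at 9.68 ± 7.28 and 33.3 ± 11.3 CPM without passing (log2 fold change -1.79, adjusted p = 0.0518), and CD14, the 1 of 6 past the threshold, was higher in IMF, at 5.88 ± 0.86 and 2.10 ± 0.62 CPM. With DESeq2, 2 of this list were past the threshold as higher and 1 as lower. The part of these marker levels in the results for the 6 genes was not tested.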

How the data were processed

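The authors trimmed reads, aligned them to ARS-UCD2.0 and counted them per gene with featureCounts 2.0.2, and deposited whole-number counts for each of the 8 clones. The study's methods name HISAT2 as the aligner and the submitters' processing notes list STAR 2.7.11a. The methods describe unstranded libraries and the labels a dUTP step, and the labels' design text places adipogenic induction before sequencing, whereas the methods, followed here, do not. The annotation release and the treatment of multi-mapped reads were not given in the sources used here. The deposited gene length served only for TPM. Deposited group means and the authors' own comparison (fold changes, statistics and p-values) were not used. A row that names no gene held 0.0148% to 0.0209% of counts per clone and was left out.

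Tests on counts used edgeR 4.0.16 with R 4.3.3 (TMM, quasi-likelihood F-test, two-sided, no covariates, genes with at least 20 counts in total). Each SE was derived from the log2 fold change and the F statistic, and the 95% interval from that SE with a t distribution. The fit gives a gene the same dispersion in both groups, although the SF clones varied more. CPM used TMM-scaled library sizes. No clones were dropped or imputed, and the labels give no batch. The 6 genes and all lists were chosen with earlier results of these data known. Named were the genes asked for, at most 5 past the threshold per related list and 2 per cell type list by mean CPM, and the 3 nearest profiles of each gene past the threshold. Outside this rule, CD34, PPARG, DES, ITGA8, CD36, CCN1, SPP1, genes of the TGF-beta axis, SCX, ACAN, CNN1, CSPG4, MYH11 and MCAM were named after their values were seen. Alternatives were DESeq2 1.42.0, limma-voom (limma 3.58.1), other scalings and filters, a prior count of 2, glmTreat with a log2 fold change of 1 as the null, a replicate block and leaving out each clone. On simulated counts for 18072 genes, 200 of them were changed by a log2 fold change of 2. Both edgeR and limma-voom recovered 91% and made 4 false calls, and DESeq2 recovered 94.5% and made 38. The simulation gave both groups the same spread, whereas the SF clones varied more than the IMF clones here. These rates therefore describe the simulated setting and may not carry over to the clones.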

Additional observations from a re-analysis of the deposited data

How the results depend on the processing

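No log2 fold change of the 6 genes changed sign in any of the 19 alternatives. The number of genes past the threshold was 1618 of all genes and 3 of the 6. Taking a log2 fold change of 1 as the null gave 631 and 1 (THBS2), as that hypothesis is stricter. With 1 clone left out the counts ranged from 1332 to 1643 and from 2 to 3, and POSTN was the gene lost, without IMF4. DESeq2 called 1996 genes and limma-voom 1772, which left out POSTN. Same-numbered clones deviated together only weakly (correlations -0.00932 to 0.139), so the numbers were not taken as pairs, and a fit with the clone number as a replicate block called 1489 genes and 2 of the 6, without POSTN (log2 fold change -3.39, adjusted p = 0.104). TGFBI (adjusted p = 0.0679) and SMOC2 (0.132) lost their calls in that fit as well. Scaling to total counts alone moved the all-gene median log2 fold change from -0.03 to 0.12 and the share of calls that were higher in IMF from 54.2% to 66.7%. That share was 75.4% with the stricter null, and it fell under 50% with DESeq2 (48.95%, 977 higher and 1019 lower) and without IMF1 (49.2%, 806 and 832). Total-count scaling also raised the IMF mean of TNC to 4764, of SPARC to 4801, of THBS1 to 6184 and of THBS2 to 101 CPM, and scaling without the 6 genes raised that of THBS1 to 5994 CPM. In the other 67 of 72 comparisons of a group mean with an alternative, the mean moved by less than the spread between clones. Most of these left out 1 of 4 clones, which cannot move a mean by more than that spread. Only the changes of scaling could do so, and scaling to total counts alone moved 4 of the 12 means. Under the stricter null the related genes TNXB, TGFBI, SMOC2, ITGB3, ITGB8, LRP1, COL1A1, FBLN1, FBLN2, LTBP1 and ADAMTS7 were also not past the threshold. List counts were compared with the main count for DESeq2 and for total-count scaling, and 50 of these 56 comparisons stayed within 1.5 times. The other alternatives were not part of that comparison. With 4 clones per group, the adjusted p of THBS1 crossed 0.05 with the tool, the filter or the clone left out, and that of THBS3 without IMF4, with total-count scaling or with the stricter null.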
